A study of Mus musculus with 90 samples.

Results

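The experiment described here is a 2 h exposure of RAW 264.7 cells to 2-methyl-thio-ATP (2MA) at 500 µM, set against untreated cells of the same time point. RAW 264.7 is a mouse macrophage line. The 6 arrays labelled 2MA at 2 h were taken, of 90 in the series. They form 3 numbered sets, and each set holds the same pair of RNAs hybridized in both dye orientations to a custom Agilent oligonucleotide array. The groups used for comparison are 2MA at 500 µM for 1 h and for 4 h, LPS+2MA for 2 h, and lipopolysaccharide (LPS) for 2 h. LPS was given at 100 ng/ml in both. The label of LPS alone also lists lipid binding protein at 100 pM, which the LPS+2MA label does not name. No genotype is named for any group, and no agent other than these for the compared groups. The fit also took in the other conditions of the series, among them interferon gamma alone and LPS with interferon gamma. The reference RNA was always from untreated RAW 264.7 cells of matching time. Whether the 3 sets came from separate cultures is not stated, nor whether treatments shared untreated RNA. If they are technical repeats, the spread that the p-values rest on is technical.

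ATP released by damaged or activated cells is read by P2 receptors on the macrophage surface. P2X receptors are cation channels that admit calcium, and P2Y receptors couple to G proteins, which can release calcium from stores or change cyclic AMP. 2MA is an ATP analogue that activates several P2 receptors. In many cell types such signals switch on immediate early genes, which respond without new protein synthesis and include transcription factor genes. LPS acts through Toll-like receptor 4 and NF-kB, and is the classic trigger of inflammatory genes in macrophages.

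Values are log2 ratios of treated over untreated RNA. A ratio of 0 means equal signal, and 1 means a 2-fold difference. The labels do not state which channel is the numerator, so the direction is likely rather than known: with Cy5 over Cy3, 7 of 7 genes known to respond to LPS had ratios above 0 at 2 h of LPS (median 3.39). The RNA of a whole culture was measured, so a change in the cells' mix and a change in each cell cannot be told apart. Ratios carry no level of expression, so the labelled cell type could not be checked against its markers. The 6 measured macrophage markers ran from -0.19 to 0.19 and none was called; the 7 T cell, 5 B cell, 7 neutrophil and 7 fibroblast markers ran from -0.17 to 0.22 with none called.

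The 3 sets differed. Across the 11600 features tested, the turned ratios of sets 1 and 3 had a correlation of 0.55, sets 1 and 2 of 0.07, and sets 2 and 3 of -0.33. Before turning, arrays of the same dye orientation correlated positively in 6 of 6 pairs (0.31 to 0.68). A dye effect shared by arrays of an orientation would also raise these values, so they are no measure of agreement between sets. Features with a set mean at or beyond 2-fold numbered 110 in set 1, 50 in set 2 and 20 in set 3. These correlations run across features of shared arrays and are descriptions. Counts are therefore also given without each set.

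After 2 h of 2MA, 37 of 11600 features (0.319%) were higher than in untreated cells and 1 (0.00862%) was lower. To be called, a feature needed an adjusted p under 0.05 in limma's moderated test (adjustment by Benjamini and Hochberg) and a mean at or beyond 2-fold. The p-values rest on a feature's spread over all 15 conditions. They do not measure the spread of the 3 sets of 2MA at 2 h given beside them. The 37 higher features spanned 1.01 to 2.55 (log2), and 33 of them carry a gene name. The leading genes were the zinc finger factor gene Egr2, the repressor gene Bcl6b, the chemokine gene Ccl7, Phlda1 and the calcineurin regulator gene Rcan1. With only the sets of 2MA at 2 h fitted, Ccl7 and Phlda1 stayed called, and Egr2, Bcl6b and Rcan1 did not. By adjusted p alone 114 features (0.983%) were higher and 29 (0.25%) lower, 143 in all (1.23%), and 896 features (7.72%) had an unadjusted p under 0.05. In all, 38 features (0.328%) were called.

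Set 1 gave the highest ratio for 33 of the 37 higher features, and its median over them was 1.98, against 1.08 for set 2 and 0.95 for set 3. The sign was the same on all 6 arrays for 36 of the 37. The exception was Tsc22d1, a leucine zipper gene, where the set 2 array with treated RNA in Cy5 read -0.49. All 3 sets passed 2-fold on their own for 8 features. Without set 1 the call held for 9 features, all of them higher: Ccl7, Bcl6b, Myc, Pdgfb, Ptpn22, Egr3, Ccl4 and the unnamed probes 15739 and 1349. Without set 2 there were 34 higher and 3 lower features, and without set 3 there were 52 higher and 1 lower.

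**Figure D1:**
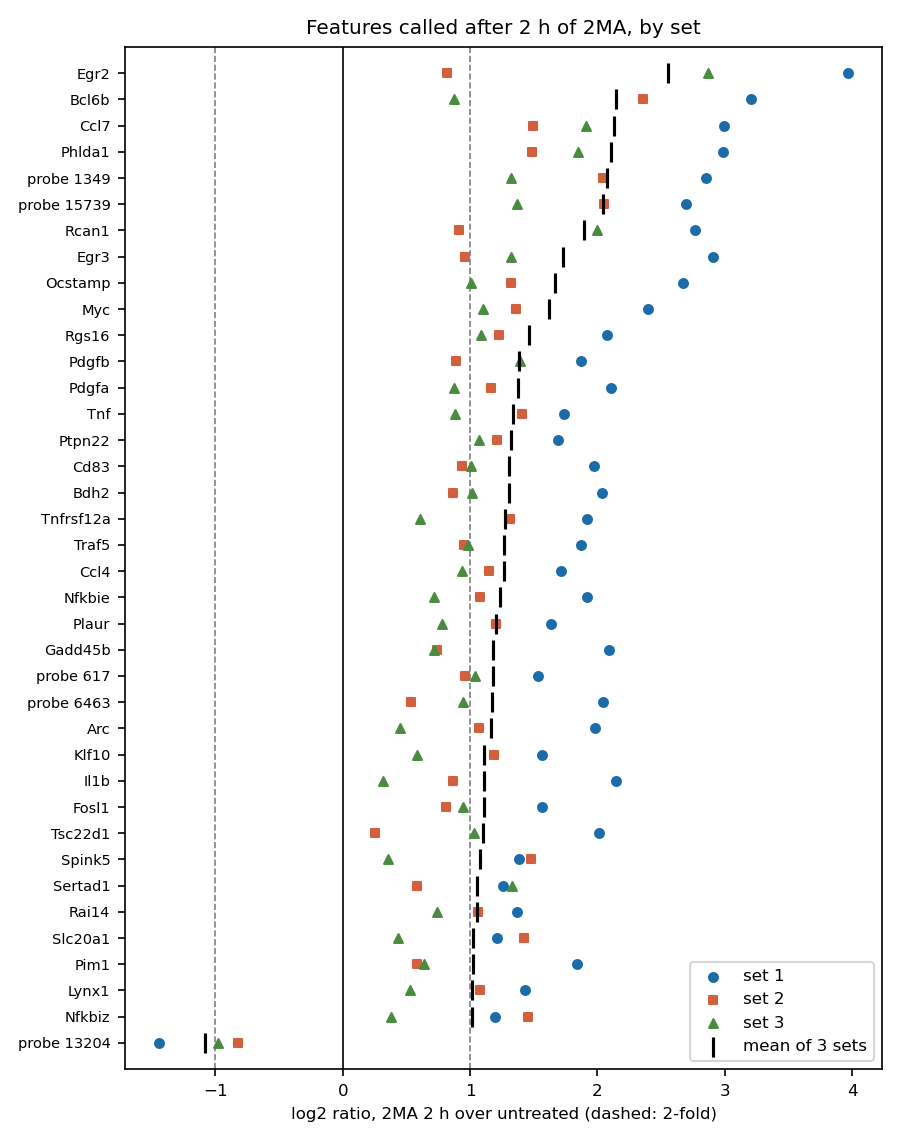
The 38 features called after 2 h of 2MA, with the log2 ratio of 2MA over untreated on the horizontal axis. Each symbol is a set, averaged over its dye orientations, the black tick is the mean of 3 sets, and dashed lines mark 2-fold. Set 1 lies to the right of the other sets for 33 of the 37 higher features, and probe 13204 is the only feature on the lower side.

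Promoter windows of Egr2 and Rcan1 are shown because these are the highest members of the transcription factor list and of the calcium list. RefSeq (GRCm38.p6) gives windows of 250 bases before to 50 after a listed start for 18 of the 33 named genes that were higher. Capitals mark motif matches found on either strand, and the sequences run 5′ to 3′ on the gene's strand.
Egr2, chr10:67537619-67537918, plus strand: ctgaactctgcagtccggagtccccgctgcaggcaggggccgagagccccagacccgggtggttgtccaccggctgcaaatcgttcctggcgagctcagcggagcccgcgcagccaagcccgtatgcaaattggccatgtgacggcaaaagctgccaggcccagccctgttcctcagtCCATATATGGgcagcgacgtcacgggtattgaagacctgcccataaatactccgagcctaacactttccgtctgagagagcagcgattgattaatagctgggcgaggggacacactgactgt
Rcan1, chr16:92400029-92400328, minus strand: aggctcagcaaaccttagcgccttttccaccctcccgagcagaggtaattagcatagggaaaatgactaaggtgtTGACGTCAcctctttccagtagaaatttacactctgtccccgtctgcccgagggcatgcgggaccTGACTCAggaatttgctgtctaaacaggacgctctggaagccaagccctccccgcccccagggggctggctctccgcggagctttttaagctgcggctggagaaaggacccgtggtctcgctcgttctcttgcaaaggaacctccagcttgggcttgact
In the Egr2 window the capitals are a CArG box, the site type read by serum response factor, starting 72 bases before the listed start. In the Rcan1 window they are a cyclic AMP response element (CRE, TGACGTCA) at 175 bases and an AP-1 site (TGANTCA) at 110 bases before the start; these matches do not overlap. RefSeq lists 5 windows for Egr2, of which 4 hold a CArG box, and 2 for Rcan1, of which 1 holds the CRE; the windows shown were picked for these motifs.

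Of the 18 genes with a window, Egr2 alone held a CArG box, against 1.81% of 27025 genes, and Rcan1 alone held the CRE, against 2.03%. The AP-1 site lay in windows of Nfkbie, Plaur and Rcan1, against 8.97% of genes. An NF-kB motif lay in windows of Egr2, Nfkbie, Pdgfa and Tsc22d1, against 9.55%. The EGR motif (GCGNGGGCG) lay in windows of Gadd45b, Plaur and Tnfrsf12a, against 6.27%. These are matches of letters in short windows and not measured binding.

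Among immediate early transcription factors, 5 of 22 measured were higher and none lower, and 21 of 22 ratios lay above 0. The list's median was 0.54, against 0.01 over all features tested. Over all features, 37 of 11600 (0.319%) were higher, 114 (0.983%) were higher by adjusted p alone, and 6151 ratios lay above 0. These shares are the background for the list counts against untreated cells that follow. Egr2 read 3.97, 0.82 and 2.87 in sets 1, 2 and 3 (5.86-fold on average, adjusted p = 0.000847). Set 2 was the low one and fell short of 2-fold. Egr3, a close relative of Egr2, read 2.91, 0.96 and 1.32 (adjusted p = 3.84e-06). Here set 1 was far above the other sets. Myc, the growth-promoting transcription factor gene, read 2.40, 1.36 and 1.10 (adjusted p = 3.65e-05), so every set was beyond 2-fold.

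Klf10, a zinc finger gene known for its induction by TGF-beta, averaged 1.11 ± 0.50 (SD, n = 3 sets, as in all such values below). Fosl1, which encodes the AP-1 subunit Fra-1, averaged 1.11 ± 0.40. Its relatives Fosl2 (0.93, adjusted p = 0.0286) and Jund (0.74, adjusted p = 0.0069) passed the test and stayed under 2-fold. Fos itself read 0.11, 0.17 and 0.22 (adjusted p = 0.994), and Jun averaged -0.14 ± 0.38, the lowest of the list.

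Egr1, the founding member of its family, was at least 2-fold up on average and did not pass the test. It read 1.89 in set 1 and 2.20 in set 3, and set 2 had no value because an array gave none (mean 2.04, n = 2, adjusted p = 0.0995). With the set number within a time as a replicate block, its estimate was 1.70 and the adjusted p was 0.0193. That block takes spread shared by same-numbered sets out of the error, though a mean set against 0 still carries it. The smaller p therefore adds no support. Without the block, Egr1 was the single feature of 11600 beyond 2-fold without passing. Nr4a1, an orphan nuclear receptor gene, read 2.09, 0.55 and 0.33 (adjusted p = 0.0555).

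Genes of calcium and calcineurin signalling gave 1 higher member of 17, Rcan1, and 4 that passed by adjusted p. The list's median was 0.05, against 0.01 over all features. Rcan1, whose protein binds and restrains calcineurin, read 2.77, 0.91 and 2.00 (3.71-fold, adjusted p = 0.000667). Its 2 probes gave 1.85 and 1.93. Nfatc1, the gene of a calcineurin-activated transcription factor, averaged 0.56 (adjusted p = 0.00673). Atp2b1, which encodes a plasma membrane calcium pump, averaged 0.53 (adjusted p = 0.0189), and Camk2d, a calmodulin-dependent kinase gene, 0.40 (adjusted p = 0.0289). The lowest member was Nfatc3 at -0.32 ± 0.19. The calcineurin subunit genes Ppp3ca (-0.07), Ppp3cb (-0.05) and Ppp3r1 (0.24) did not pass.

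The receptors themselves were not called. None of 15 measured P2 receptors, adenosine receptors and ectonucleotidases passed in either direction, and the list's median was 0.01. P2ry2, the receptor for ATP and UTP, was highest with 0.91, 0.40 and -0.02 in sets 1 to 3 (adjusted p = 0.113). P2ry1 was lowest at -0.18 ± 0.31. P2ry6 averaged 0.19, P2rx4 0.11, P2rx1 0.11, P2ry14 0.06, P2rx6 0.02, P2ry4 0.00, P2rx7 -0.04 and P2ry12 -0.13. Of the cyclic AMP and CREB response genes, 0 of 16 were called and 1 passed by adjusted p alone, Rgs1 at 0.73 (adjusted p = 0.0167).

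Genes of mRNA decay and growth arrest gave 2 higher of 14, with a median of 0.49. Phlda1, a pleckstrin homology domain gene, read 2.99, 1.49 and 1.85 (4.31-fold, adjusted p = 0.000667). Gadd45b, a stress sensor gene upstream of p38 and JNK, averaged 1.18 ± 0.78, with set 1 at 2.09 and the others at 0.74 and 0.72. Zfp36l1, an mRNA decay factor gene, passed at 0.73 (adjusted p = 0.0109). Its relative Zfp36, which encodes tristetraprolin, also averaged 0.73 and did not pass (adjusted p = 0.321).

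MAP kinase phosphatases and Sprouty inhibitors had 0 of 8 called. Dusp2, a phosphatase gene of MAP kinases, stood just below the threshold at 1.00 (0.999 before rounding, adjusted p = 0.0566), and its 2 probes disagreed, with 1.87 and 0.13. With values required at 2MA 2 h only, a setting that averages 3 probes of the gene, Dusp2 was called. Its sets then read 2.02, 1.23 and 0.50 (mean 1.25, adjusted p = 0.000266). The main filter left out the third probe, and the filter of this setting looks at 2MA 2 h alone. That call is therefore a description and adds no support. With its 2 probes, Dusp2 was also called without set 3 (1.38, adjusted p = 0.0156). Dusp1 averaged 0.91 (adjusted p = 0.0473).

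NF-kB subunits, inhibitors and feedback genes gave 2 higher of 17 and 4 by adjusted p, with a median of 0.53. Nfkbie encodes the inhibitor I-kappa-B epsilon and read 1.92, 1.08 and 0.71 (adjusted p = 0.000646). Nfkbiz, the gene of the nuclear protein I-kappa-B zeta, was the lowest of the 37 at 1.01 ± 0.56 (adjusted p = 0.0331), with 1.20, 1.45 and 0.38 in the sets. Relb (0.81, adjusted p = 0.000252) and Traf1 (0.66, adjusted p = 0.0324) passed under 2-fold. Traf5, an adaptor gene of TNF family receptors that was not on the list, read 1.87, 0.95 and 0.99 (adjusted p = 3.55e-07). Nfkbia had no feature among those tested.

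Of the inflammatory cytokines 2 of 18 were higher, with a median of 0.10. Tnf read 1.74, 1.40 and 0.88 (adjusted p = 0.0174). Il1b, the interleukin-1 beta gene, read 2.14, 0.86 and 0.32 (adjusted p = 0.00512), and its set 1 value was more than 1 log2 unit above either other set. Its 3 probes gave 0.84, 1.20 and 1.29. Il6 averaged 0.13 ± 0.06 and Nos2, the inducible nitric oxide synthase gene, 0.01 ± 0.08. Ptgs2, the inducible cyclooxygenase gene, averaged 0.51 ± 0.48 (adjusted p = 0.789). These genes, together with Il15 at -0.16, the lowest cytokine, were not called.

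Of the chemokines 2 of 13 were higher, with a median of 0.06. Ccl7, a monocyte chemoattractant gene, read 3.00, 1.50 and 1.91 (4.39-fold, adjusted p = 2.09e-11), with every set beyond 2-fold. Its 3 probes disagreed: probes 13656 and 18303 gave 2.99 and 3.60, and probe 9667 gave -0.19. Ccl4, which encodes macrophage inflammatory protein 1 beta, read 1.71, 1.15 and 0.93 (adjusted p = 0.000102). The other 11 ran from -0.09 (Cxcl1) to 0.17 (Ccl9).

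Further chemokine genes of the list were left out of the fit because arrays of other conditions gave no value for them. With values required at 2MA 2 h only, a setting that called 44 features, Ccl2, Cxcl2 and Cxcl10 were called as well. Ccl2, the monocyte chemoattractant protein 1 gene, read 2.82 and 3.04 in sets 2 and 3 and had no value in set 1 (adjusted p = 1.09e-05). Cxcl2, a neutrophil chemoattractant gene, read 3.50, 2.38 and 1.48 (adjusted p = 7.51e-05). Cxcl10 averaged 1.24 ± 0.55 (adjusted p = 0.00105). That setting also called Acod1, the itaconate synthase gene, at 2.61 ± 0.88 and Il1rn, the interleukin-1 receptor antagonist gene, at 1.16 ± 0.61. These genes were picked after their values were seen. The filter of this setting looks at 2MA 2 h alone, where they were high. Fewer than 2 sets were measured in 8 of the 15 conditions for Ccl2 and Il1rn, 6 for Cxcl2 and Acod1, and 5 for Cxcl10. Their calls are therefore a description and add no support to the counts of the lists.

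Other higher genes belong to no list. Bcl6b, a transcriptional repressor gene related to Bcl6, read 3.21, 2.36 and 0.87 (4.42-fold, adjusted p = 4.55e-05). Ocstamp, needed for the fusion of macrophage-lineage cells into osteoclasts, read 2.67, 1.32 and 1.01 (adjusted p = 4.55e-05). Of the platelet-derived growth factor genes, Pdgfb averaged 1.39 ± 0.49 and Pdgfa 1.38 ± 0.64. Rgs16, a negative regulator of G protein signalling, averaged 1.46 ± 0.54.

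Ptpn22, a phosphatase gene of immune receptor signalling, had a narrow spread with 1.69, 1.21 and 1.07 (adjusted p = 3.12e-07). Cd83, an activation marker of antigen-presenting cells, averaged 1.31 ± 0.58. Plaur, the urokinase receptor gene, averaged 1.21 ± 0.43, and Tnfrsf12a, the TWEAK receptor gene, 1.28 ± 0.66. Bdh2, a short-chain dehydrogenase gene, averaged 1.30 ± 0.64, and Arc, best known as a synaptic immediate early gene, 1.17 ± 0.77. Pim1, a survival kinase gene, was the single higher member of 22 apoptosis and survival genes (1.02 ± 0.71, list median 0.16).

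The remaining higher genes were Tsc22d1, Spink5, Sertad1, Rai14, Slc20a1 and Lynx1, at 1.01 to 1.10. They are named here after their values were seen, as are the unnamed probes 1349 (2.07), 15739 (2.04), 617 (1.18), 6463 (1.18) and 13204. Rai14, an actin-binding ankyrin repeat gene, read 1.36, 1.06 and 0.74 and had the smallest SE among them (0.11). Just under 2-fold stood Odc1 (0.99), Fam107b (0.98), Bhlhe40 (0.98) and Agpat4 (0.98), which passed the test and are no members of the 37.

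On the lower side probe 13204, which has no gene name here, read -1.44, -0.82 and -0.98 (adjusted p = 0.000667). Genes that passed the test at less than 2-fold included Pax6 (-0.87), Id3 (-0.78), Tmem273 (-0.72), Natd1 (-0.70) and Smad6 (-0.63). Id3 encodes an inhibitor of basic helix-loop-helix factors and Smad6 an inhibitor of BMP signalling. Without set 2, Id3 and Pax6 also passed 2-fold.

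No member was called in the lists of eicosanoid genes (10 measured), interferon-gamma response genes (21), antiviral interferon-stimulated genes (21), unfolded protein and integrated stress response (18), oxidative stress and heat shock (16), macrophage receptors and effectors (26), glycolysis and hypoxia (14), cell cycle (33) or reference genes (10). Their medians ran from -0.08 for cell cycle to 0.07 for the unfolded protein list. In the cell cycle list 6 of 33 ratios lay above 0, against 6151 of 11600 over all features, and none passed by adjusted p. The highest members of these lists were Hspa1a at 0.59 ± 1.07, Ifit3 at 0.55 ± 0.23 and Ccr1 at 0.52 ± 0.33. The 2 probes of Ccr1, a chemokine receptor gene, disagreed, with 1.06 (adjusted p = 0.0191) and -0.02, and with complete values required, which leaves the first probe, Ccr1 was called. Hspa1a, an inducible heat shock protein gene, rested on set 1 with 1.78, against -0.28 and 0.27 in the other sets.

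**Figure D2:**
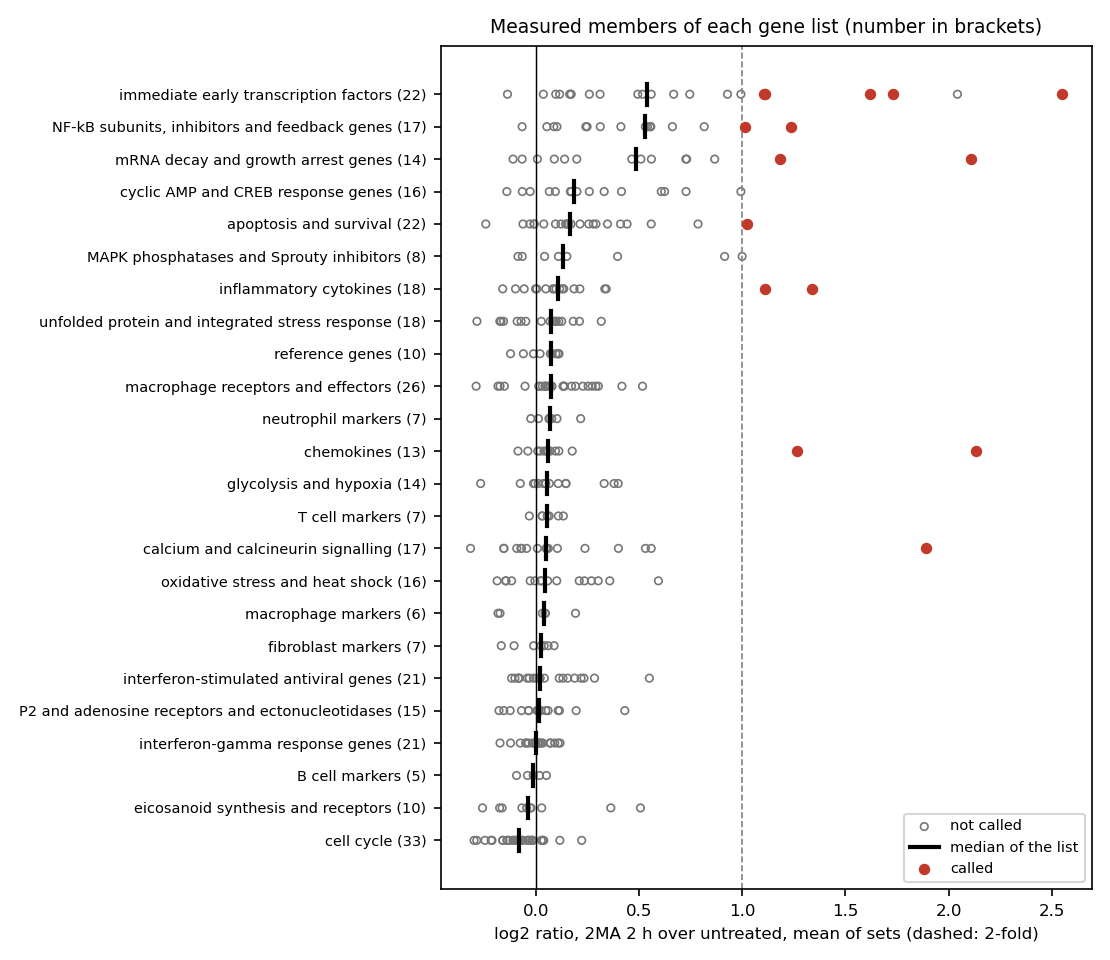
Mean log2 ratio of 2MA 2 h over untreated for each measured member of the 24 gene lists, in order of the lists' medians. Filled red points are called, open points are not, black ticks are medians and the dashed line marks 2-fold. The transcription factor list holds 5 called members. The reference genes lie around 0, and the cell cycle list, with 6 of 33 ratios above 0, has the lowest median.

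The time course asks how the 2 h response sits between 1 h and 4 h of the same agent. The 37 higher features had a median of 0.91 at 1 h, 1.27 at 2 h and 0.87 at 4 h. At 2 h 13 of them had a lower mean than at 1 h, and at 4 h 33 had a lower mean than at 2 h. Since they were chosen at 2 h, a peak there is partly built in. Each time point was set against untreated RNA of its own time.

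The difference 2 h less 1 h was called for Traf5 alone (0.00862% of features), at 1.09 (SE 0.20, adjusted p = 0.0476). Traf5 read 0.40, 0.07 and 0.06 at 1 h and 1.87, 0.95 and 0.99 at 2 h. It averaged 0.92 ± 0.31 at 4 h. Without set 1 at 2 h, or without set 1 or set 3 at 1 h, no feature was called. Without set 2 at 1 h there were 25, and without set 3 at 2 h there were 2, Traf5 and Plaur. At an unadjusted p under 0.05, 892 features (7.69%) differed.

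With the set number within a time as a replicate block, 19 features were called, 11 higher and 8 lower at 2 h, Traf5 among them (adjusted p = 0.00142). Same-numbered sets of 2MA and of the other treatments deviated together at 2 h (0.15 to 0.75), and at 1 h in 10 of 12 pairs (-0.12 to 0.62). No block spans 1 h and 2 h, so spread shared by same-numbered sets of a time does not cancel from this difference. The block p-values leave that spread out and can be too small. They are given as a description and add no support.

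Further genes had low 1 h and high 2 h values, and passed the test only with the block, whose p-values can be too small here. Plaur averaged -0.01 ± 0.30 at 1 h, 1.21 ± 0.43 at 2 h and 0.89 ± 0.35 at 4 h (2 h less 1 h, adjusted p = 0.0894, and 0.00157 with the block). Ocstamp averaged 0.22 ± 0.25 at 1 h, 1.67 ± 0.88 at 2 h and 1.71 ± 0.88 at 4 h (adjusted p = 0.168, and 0.00961 with the block). Nfkbie averaged 0.03 ± 0.40, 1.24 ± 0.62 and 1.06 ± 0.49 at these times (adjusted p = 0.171, and 0.00173 with the block). Bcl6b averaged 0.71 ± 0.41, 2.15 ± 1.18 and 1.80 ± 0.68 (adjusted p = 0.359, and 0.0205 with the block), and its 1 h and 2 h sets overlapped.

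Egr2 and Egr1 had the reverse order. For Egr3 the times overlapped, with 2.36, 2.46 and 1.44 at 1 h and 2.91, 0.96 and 1.32 at 2 h. Its difference 2 h less 1 h was -0.36 (limma's adjusted p = 0.827). Egr2 read 5.27, 3.21 and 4.72 at 1 h, 3.97, 0.82 and 2.87 at 2 h, and 1.84, 0.36 and 1.58 at 4 h. The difference 2 h less 1 h was -1.85 (SE 0.65, adjusted p = 0.426, and 0.0379 with the block). Egr1 averaged 3.81 ± 0.99 at 1 h, 2.04 at 2 h (n = 2) and 0.59 ± 0.40 at 4 h (2 h less 1 h, adjusted p = 0.545, and 0.0464 with the block). Nfkbiz averaged 2.34 ± 1.22 at 1 h, 1.01 ± 0.56 at 2 h and 0.87 ± 0.02 at 4 h (2 h less 1 h, adjusted p = 0.249, and 0.0205 with the block). Zfp36 averaged 2.32 at 1 h, 0.73 at 2 h and 0.51 at 4 h (2 h less 1 h, adjusted p = 0.168, and 0.00268 with the block).

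The difference 4 h less 2 h was called for no feature (0 of 11600, 0.0%) by limma, and 359 (3.09%) had an unadjusted p under 0.05. Same-numbered sets of 2MA deviated together at 2 h and 4 h (correlations 0.33, 0.61 and 0.31). With that set number as a replicate block, Egr3 was called, at -1.59 (adjusted p = 0.0126, against 0.131 without the block). Egr3 read 2.91, 0.96 and 1.32 at 2 h and 0.28, 0.17 and -0.02 at 4 h. Rcan1 read 2.77, 0.91 and 2.00 at 2 h and 1.07, 0.08 and -0.45 at 4 h (difference -1.66, adjusted p = 0.757). Without set 2 at 2 h, Egr3 (-1.97) and Ccl7 (-1.30) were both called.

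The interferon-stimulated antiviral list had a median of 0.02 at 2 h of 2MA, beside 0.01 at 1 h and 0.58 at 4 h. Ifit1, an antiviral effector gene that binds viral RNA, averaged 0.34 ± 0.17 at 1 h, 0.19 ± 0.44 at 2 h and 0.98 ± 0.58 at 4 h.

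**Figure D3:**
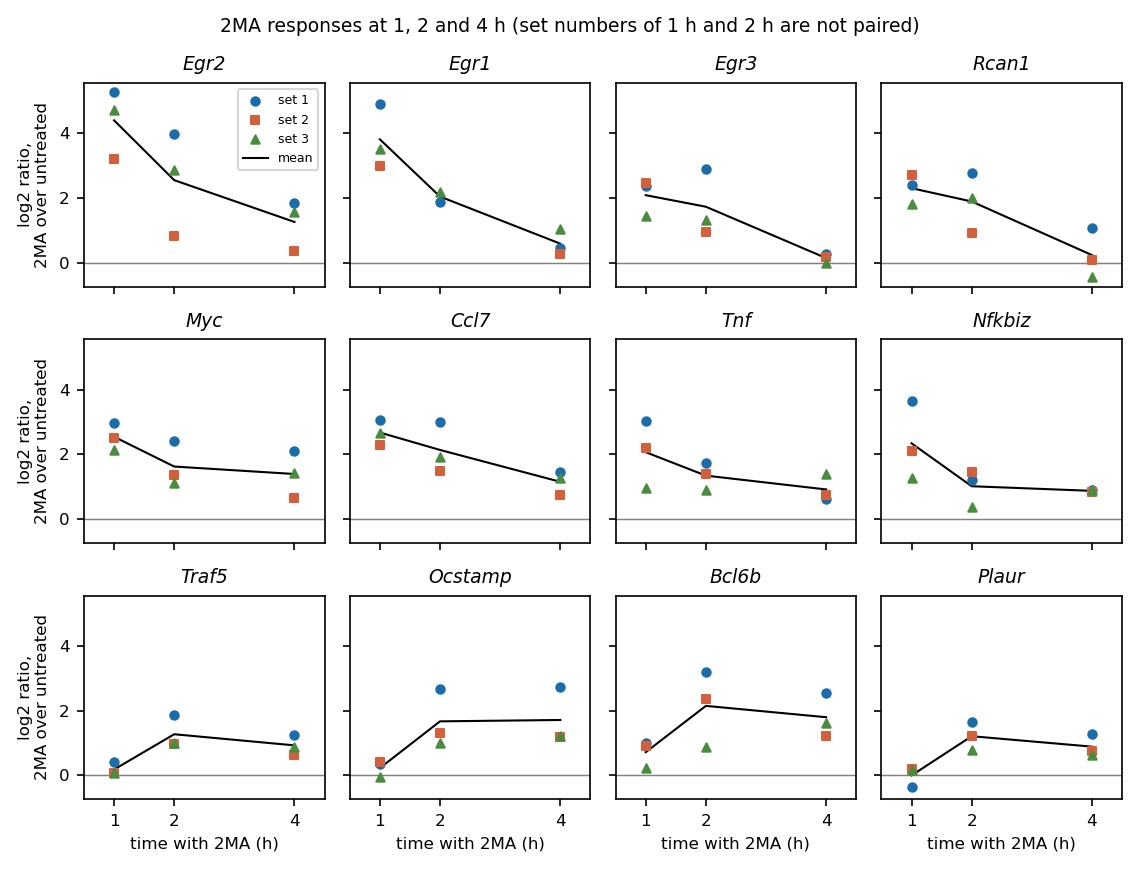
Log2 ratio of 2MA over untreated at 1, 2 and 4 h for 12 genes. Symbols are sets and lines join the means. Egr2 is highest at 1 h (4.40) and lower at 2 h (2.55) and 4 h (1.26), while Traf5 is near 0 at 1 h (0.18) and higher at 2 h (1.27).

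Set beside LPS at the same time, 2MA differed in 177 features (1.53%): 34 (0.293%) were higher with 2MA and 143 (1.23%) lower. The agents and their doses differ, so this is a comparison of these treatments as given, and untreated RNA may have been shared. Of the 37 features that 2MA raised, 3 were called higher with 2MA than with LPS, 11 were called lower and 23 were not called. Their median was 1.27 with 2MA and 1.82 with LPS. Since the 37 were chosen by their 2MA ratios, the median with 2MA is partly built in. The call counts without each set of either group ran from 158 to 201.

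The features above LPS were Klf10, Bdh2 and probe 617. Klf10 read 1.57, 1.18 and 0.58 with 2MA, against -0.30, -0.28 and 0.05 with LPS (difference 1.29, SE 0.35, adjusted p = 0.0247). Bdh2 read 2.04, 0.86 and 1.01 with 2MA, against -0.15, 0.00 and -0.16 with LPS (difference 1.41, SE 0.23, adjusted p = 5.08e-05). Probe 617 averaged 1.18 ± 0.31 with 2MA and -0.78 ± 0.26 with LPS (adjusted p = 1.25e-05). These 3 were picked by this difference, so a gap between their set values is partly built in.

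Egr2, Egr3 and Rcan1 also had higher means with 2MA and did not pass. Egr3 averaged 1.73 ± 1.04 with 2MA and 0.72 ± 0.20 with LPS (difference 1.01, SE 0.31, adjusted p = 0.0552). Egr2 averaged 2.55 ± 1.60 with 2MA and 1.65 ± 0.75 with LPS (adjusted p = 0.613). Rcan1 averaged 1.89 ± 0.93 with 2MA and 1.11 ± 1.49 with LPS (adjusted p = 0.495). In all, 12 of the 37 had a lower mean with LPS than with 2MA, a count that their choice by 2MA ratios also affects.

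The other 11 called features were lower with 2MA than with LPS. Nfkbiz averaged 1.01 ± 0.56 with 2MA and 4.95 ± 0.14 with LPS (difference -3.94, SE 0.36, adjusted p = 6.48e-10). Il1b averaged 1.11 ± 0.94 with 2MA and 4.58 ± 0.20 with LPS (difference -3.47, adjusted p = 8.61e-10). Tnf averaged 1.34 ± 0.43 with 2MA and 3.87 ± 0.16 with LPS (difference -2.53, adjusted p = 0.000149). The others were Lynx1 (-3.20), Cd83 (-2.58), Myc (-2.57), Pim1 (-2.37), Ccl4 (-2.13), Gadd45b (-1.52), Nfkbie (-1.29) and Plaur (-1.15).

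Outside the 37, the largest differences were in genes that hardly moved with 2MA. Ifit1 averaged 0.19 ± 0.44 with 2MA and 3.63 ± 0.38 with LPS. Csf3, the granulocyte colony-stimulating factor gene, averaged 0.08 ± 0.28 with 2MA and 3.45 ± 0.35 with LPS. Saa3, an acute phase gene, averaged 0.03 ± 0.23 with 2MA and 3.32 ± 0.46 with LPS, and Ifnb1, the interferon beta gene, 0.18 ± 0.14 with 2MA and 3.42 ± 0.20 with LPS. On the other side stood genes with ratios below 0 under LPS. Txnip, which encodes the thioredoxin-interacting protein, averaged 0.36 ± 0.27 with 2MA and -1.46 ± 0.68 with LPS (difference 1.81, adjusted p = 4.84e-05). Tsc22d3, known as glucocorticoid-induced leucine zipper, averaged 0.03 ± 0.18 with 2MA and -1.57 ± 0.36 with LPS.

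Cdkn2d, Etv1, Frmd4b and St8sia4 were likewise called higher with 2MA than with LPS (differences 1.46 to 1.58). Etv1, an ETS family factor gene, read 1.07, 0.90 and 0.62 with 2MA (adjusted p = 3.84e-06 against untreated), and averaged -0.62 ± 0.20 with LPS. Id3 had ratios of opposite sign, with -0.76, -0.26 and -1.31 under 2MA against 1.27, 1.18 and 1.27 under LPS (difference -2.02, adjusted p = 1.16e-07).

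By list, the NF-kB genes held 11 of 17 called lower with 2MA than with LPS and 0 higher, against 143 and 34 of 11600. The antiviral list held 11 of 21 lower, the inflammatory cytokines 10 of 18, the apoptosis and survival genes 7 of 22, and the chemokines 3 of 13. The transcription factors had 3 of 22 lower and 2 higher, Klf10 and Klf4. No calcium signalling gene and no P2 receptor gene was called in either direction.

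With LPS+2MA for 2 h the 37 features had a median of 2.88. Probe 6463 read 2.05, 0.53 and 0.95 with 2MA, 2.60, 2.89 and 3.94 with LPS+2MA, and 0.23, 0.55 and 0.72 with LPS. Rcan1 averaged 1.89 ± 0.93 with 2MA, 3.03 ± 0.32 with LPS+2MA and 1.11 ± 1.49 with LPS. LPS alone also had lipid binding protein by its label, so these groups differ in more than 2MA, and the values are given side by side without a test.

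**Figure D4:**
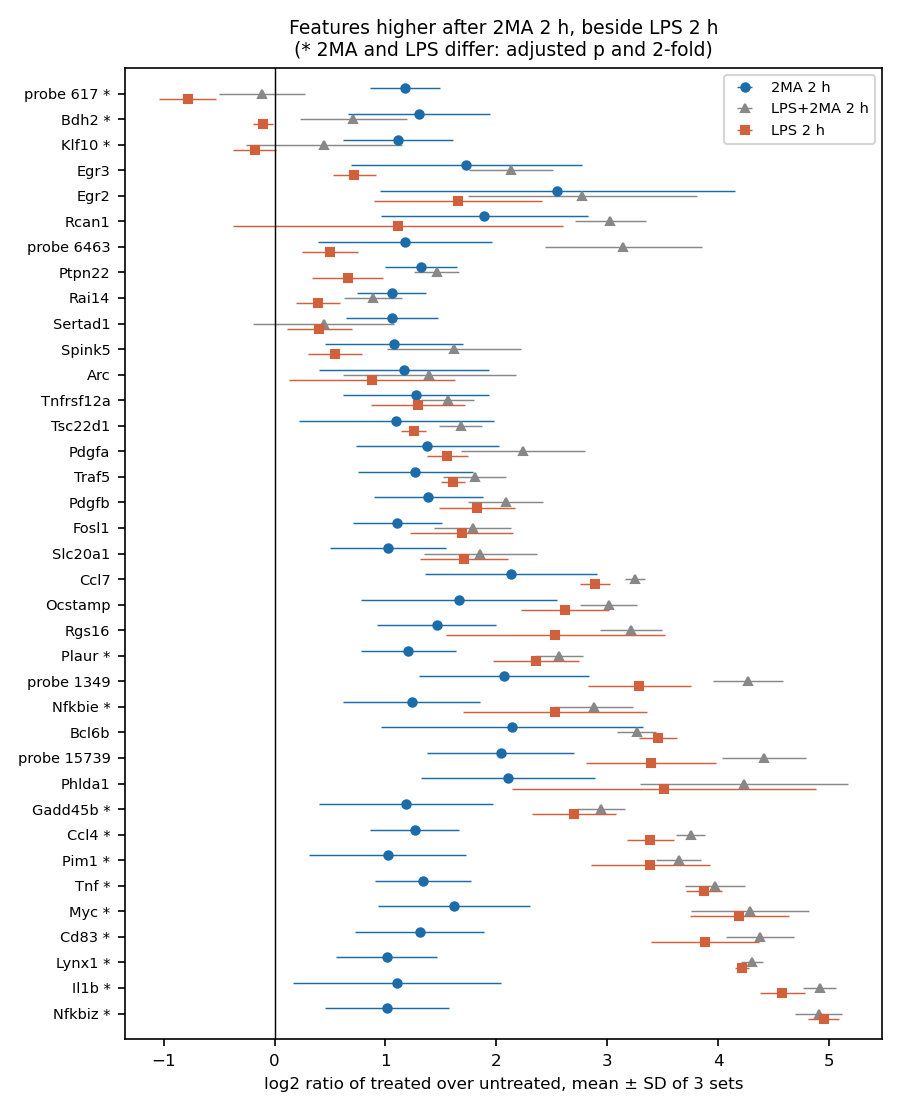
The 37 features higher after 2 h of 2MA, with the mean log2 ratio over untreated and SD of 3 sets for 2MA, LPS+2MA and LPS at 2 h. Stars mark features where 2MA and LPS differ by the test and by 2-fold: 3 at the top are higher with 2MA, and 11 below are lower.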

How the data were processed

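RNA of RAW 264.7 cells was measured on two-colour arrays. The values the authors deposited are log2 ratios of the array channels, which follows from the values: each array had a median of 0 and 14 values lay at 6.64. Image reading and normalization are not given in the sources used here.

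Exact zeros (7.84 to 9.86% of values on the 6 arrays) were taken as missing, since 753 of 16281 probes were 0 on all 90 arrays. The sign was turned on arrays whose Cy3 channel held the treated RNA, and a set's arrays were then averaged. A probe stayed if every condition had 2 or more of its 3 sets measured (13711 did), and a gene's probes were averaged. This left 11600 features, 9760 with a gene name. Gene names came from the platform annotation, whose gene IDs were found in the RefSeq table in 99.7% of cases.

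The 45 set means of 15 conditions entered a single limma 3.58.1 fit in R 4.3.3. P-values are two-sided, with Benjamini-Hochberg adjustment over all features of a comparison. A deviation from 0 tests treated against untreated RNA. The median residual SD was 0.20, and precision is limited by how few arrays there are. The fit was tested on simulated data with independent errors and equal spread in all sets of a feature. Unequal or linked sets were not covered. Tables and figures used Python 3.11.15, pandas 2.3.3 and matplotlib 3.10.9.

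Gene lists, members and tests were chosen with earlier results of these data known. By rule, the text names up to 25 higher and 10 lower called genes whose sign was equal on all 6 arrays, called list members, each list's highest and lowest member, 10 preset genes and the P2 receptors. To these were added the 6 highest and 6 lowest called of each difference, and the 5 highest and 5 lowest that passed by adjusted p alone. Same-numbered sets of 2MA and of each other treatment at 2 h deviated together (2MA with LPS 0.35, 0.50 and 0.15), as did 2MA at 4 h and 2 h. Between 2MA at 2 h and at 1 h they did not (-0.19, -0.08 and 0.52), so the block is a set number within a time. The alternatives changed the samples fitted, the dyes, the scaling, the zeros, the filter, the unit of replication, the block and the sets.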

Additional observations from a re-analysis of the deposited data

Results flagged for a closer look

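Of 111 named features, 1 had an array far from the other 5 of 2MA at 2 h: Ltf, the lactoferrin gene on the neutrophil marker list, read -0.405 on the set 2 array with treated RNA in Cy5, and -0.05 to 0.13 on the others. Chance alone gives such a flag in about 1 of 20 groups. Traf5 differed between 2MA at 2 h and 2MA at 1 h, by 1.091 (SE 0.20, limma's adjusted p = 0.0476). St8sia4, a polysialyltransferase gene, lay below 0 on all 6 arrays at 2 h (mean -0.329) and above 0 on all arrays at 1 h (mean 0.22 ± 0.05), and the difference of -0.55 did not pass limma's test (adjusted p = 0.508).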

How the results depend on the processing

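No named feature changed sign past its threshold under any alternative that averaged a gene's probes and gave it a value. With complete values required, 89 of the 111 named features had one. The run on single probes was not checked for sign, and Ccl7 probe 9667 gave -0.19. The count of features called against untreated, 38 (37 higher, 1 lower), became 14 (13 higher) when only the sets of 2MA at 2 h were fitted, 60 (39 higher, 21 lower) with only arrays that had treated RNA in Cy5, and 95 (94 higher, 1 lower) with only those in Cy3. Leaving out each set gave 9 to 53 called, 9 to 52 higher and 0 to 3 lower; set 1 gave the lowest count. The other alternatives gave 34 to 53. Of the 38, 29 were lost without set 1, 8 without set 2, 1 without set 3 and 25 with the own sets only. Egr2, Egr3, Bcl6b, Rcan1 and Myc were among those lost with the own sets only. The cause was not tested.

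With the set number within a time as a replicate block, 39 features were called against untreated and 188 against LPS. The 39 held all 38 called without the block, with Egr1 added. Against untreated and between times, this block takes out set spread that does not cancel from the comparison. Its counts there add no support. For 2 h less 1 h the block gave 19 features in place of 1, and the dye-term fit to all arrays 31. The 19 were 11 higher at 2 h, among them Ocstamp, Bcl6b, Plaur, Nfkbie, Traf5, Txnip and Myo1c, and 8 lower, among them Egr1, Egr2, Zfp36, Nfkbiz and Btg2. The count was 0 with the own sets only, either dye alone, scaled spread, single probes, complete values, or sets kept with 1 of 2 arrays, and 0 to 25 when a set was left out. For 4 h less 2 h the count of 0 became 1 with either form of the block, 2 with the dye term, and 0 to 2 when a set was left out. Against LPS the count of 177 stayed between 150 and 241. Signal over background is not part of the values used here, so what dim spots limit was not assessed.

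The fit to complete values called Pdcd1 (1.40) and Ccr1 (1.06) and lost 6 features with missing values elsewhere. Keeping a set with 1 of its 2 arrays, and the block of 2MA at 2 h and 4 h, were chosen after seeing the data.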

Other observations

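The arrays of the opposite dye orientations in a set, which should be mirror images before turning, had correlations of -0.17, 0.24 and 0.18 across probes for sets 1, 2 and 3 of 2MA at 2 h. After subtraction of a probe's mean over the 90 arrays they were -0.56, -0.31 and -0.52. Over the whole series 37 of 45 such pairs lay below 0 before that step and 45 of 45 after it.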
